A study of Mus musculus with 10 samples.

Results

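The transcripts of 42 genes for protein folding and secretion at the endoplasmic reticulum (ER) were compared between libraries with Arid1a and libraries in which it was deleted or targeted. Arid1a encodes a DNA-binding subunit of the SWI/SNF chromatin remodelling complex, and the comparison asked which steps of the secretory pathway differ with its label. The genes were picked by symbol from 48897 rows in each of 2 expression tables, and all 42 were present in both. They comprise 9 lumenal chaperones and co-chaperones, 6 lectin chaperones and disulfide isomerases, 11 translocon and signal peptidase genes, 4 genes of ER-associated degradation, 4 genes of vesicle coats and retrieval, 3 stress sensors, 3 stress transcription factors and 2 CREB3-like factors. The first table holds EpCAM+ CD45- epithelial cells sorted from the prostates of 3-month-old C57BL/6 mice, with 3 libraries whose label names no Arid1a deletion (control A, B and C) and 3 labelled Arid1aPC-/- (KO-labelled A, B and C). Both groups came from genetically engineered mice, so the control is not wild type, and Arid1a was deleted by Cre under the Probasin promoter, which acts in prostate epithelium. The second table holds Myc-CaP, a mouse prostate cancer line from the FVB strain, with 2 empty vector libraries and 2 libraries in which Arid1a was targeted by CRISPR, all here numbered 1 and 2. The labels name the cell line as the source, while the study also grew tumours from it. The labels do not say whether the libraries of a group came from separate mice, clones or cultures. For the epithelium, the study's methods give n = 3 for the mice, without saying which library came from which mouse. The p-values measure the spread between these libraries, which may be technical where the source of a library is not stated.

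Secreted and membrane proteins enter the ER through the Sec61 translocon, lose their signal peptide to signal peptidase, and are folded by chaperones such as BiP (Hspa5) and by disulfide isomerases. Misfolded proteins are returned to the cytosol and degraded. When folding falls behind, the sensors IRE1 (Ern1), PERK (Eif2ak3) and ATF6 start the unfolded protein response, in which XBP1, ATF4 and cleaved ATF6 switch on genes of folding, degradation and transport. Prostate luminal cells are secretory cells that make large amounts of secreted protein.

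XBP1 and ATF6 act through short promoter elements, which are shown here because they tie many of these genes to the unfolded protein response. The ER stress response element (ERSE) was searched as CCAAT, any 9 bases, CCACG, ERSE-II as ATTGG, any 1 base, CCACG, and the unfolded protein response element (UPRE) as TGACG followed directly by TGG, all on both strands. The CCACG end of the ERSE and ERSE-II is also contained in the opposite strand of the UPRE. Windows from 250 bases before to 50 bases after the start were available for 33 of the 42 genes in RefSeq on GRCm38.p6, and none for Hyou1, Manf, Sec61a1, Ssr2, Spcs3, Sec11c, Kdelr2, Atf6 and Creb3l1. An ERSE lay in 8 of the 33 (Hspa5, Hsp90b1, Dnajc3, Creld2, Calr, Canx, Pdia6 and Syvn1) and in 0.119% of all 32851 windows. An ERSE-II lay in Herpud1 and Dnajb11 and in 0.0365% of all windows, and a UPRE in Sec24d and Kdelr3 and in 0.676% of all windows. A match describes the letters only and does not show binding. The stretches below end before the transcription start, with the letters of the element in capitals. They show the element of Hspa5, of the ERSE genes whose values are described in most detail, and of Herpud1 and Kdelr3. An ERSE on the opposite strand, as in Calr and Creld2, reads CGTGG and ATTGG. The ERSE-II of Herpud1 lies on the coding strand, and the UPRE of Kdelr3 on the opposite strand, where it reads CCACGTCA.
Hspa5 (chr2:34771995-34772073, plus strand): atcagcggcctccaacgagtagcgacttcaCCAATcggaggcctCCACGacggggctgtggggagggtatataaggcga
Canx (chr11:50325770-50325848, minus strand): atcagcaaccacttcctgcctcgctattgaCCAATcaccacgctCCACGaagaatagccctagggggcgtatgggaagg
Pdia6 (chr12:17266461-17266539, plus strand): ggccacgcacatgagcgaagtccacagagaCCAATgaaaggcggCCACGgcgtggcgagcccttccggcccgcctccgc
Syvn1 (chr19:6046502-6046575, plus strand): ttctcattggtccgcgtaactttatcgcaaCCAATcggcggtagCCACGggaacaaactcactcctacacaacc
Calr (chr8:84847045-84847123, minus strand): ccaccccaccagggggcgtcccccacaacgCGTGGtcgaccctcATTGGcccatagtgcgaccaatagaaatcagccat
Creld2 (chr15:88819490-88819568, plus strand): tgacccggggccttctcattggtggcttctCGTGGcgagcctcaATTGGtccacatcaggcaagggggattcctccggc
Herpud1 (chr8:94386347-94386417, plus strand): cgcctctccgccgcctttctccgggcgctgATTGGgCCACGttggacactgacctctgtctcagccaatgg
Kdelr3 (chr15:79516348-79516407, plus strand): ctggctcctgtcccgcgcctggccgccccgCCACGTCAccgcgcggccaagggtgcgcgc

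Values were RPKM in the epithelium and TPM in Myc-CaP, both per length of gene, and the libraries' depth is unknown from them. Errors of log2 fold changes are standard errors (SE), with n = 3 libraries a group in epithelium and 2 in Myc-CaP. The labels were checked first. Arid1a measured 27.8, 21.9 and 26.5 RPKM in control A, B and C and 31.1, 28.8 and 30.8 RPKM in the KO-labelled libraries, so its transcript was not reduced there, and epithelium directions compare libraries by label (log2 fold change 0.25 ± 0.094 SE, adjusted p-value 0.0540). Loss of single exons would not show in 1 value per gene. In Myc-CaP it fell from 60.5 and 60.98 TPM to 39.5 and 40.3 TPM (log2 fold change -0.59 ± 0.058 SE, adjusted p-value 0.0102). Epcam measured 279, 351 and 281 RPKM in the control and 183, 194 and 225 RPKM in the KO-labelled epithelium, but was listed at 0 in 3 of the 4 Myc-CaP libraries. RPKM summed to 441646, 473331 and 445649 in the control and to 400755, 397999 and 403031 in the KO-labelled libraries, and the labels give no sequencing batch.

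In the KO-labelled epithelium, the degradation genes Edem1, Sel1l and Syvn1, the sensors Ern1 and Atf6 and the factor Xbp1 were higher, and most small translocon and signal peptidase subunits, the ER retrieval receptors and Creb3l4 were lower. Of the 42 genes, 11 were called higher, 14 lower and 17 neither (limma, Benjamini-Hochberg adjusted p-value under 0.05 over all genes tested). Over all 16275 genes tested, 57.1% were called, 27.5% higher and 29.6% lower, so the number of calls among the 42 was near that of the table as a whole. The direction of small differences in this table depends on scaling: with libraries rescaled to the same sum, the median over all genes of the log2 fold change moved from -0.028 to 0.11, the share of calls that were higher from 48.1% to 64.6%, and the split among the 42 genes to 19 higher and 9 lower. The 3 KO-labelled libraries all lay above the 3 control libraries for 17 genes and all below for 17, against a share of 66.7% of all tested genes with no overlap. The thresholds the study used (unadjusted p-value under 0.05 and at least 1.5-fold) were applied here to the limma fit of log2(value + 1). The study's own p-values for this comparison came from DEGseq, so its calls can differ. With the limma fit, 8 of the 42 passed, against 24.8% of all genes. These were Edem1, which was higher, and Creb3l4, Sec61b, Kdelr3, Ssr4, Sec11c, Sec61g and Ssr2, which were lower. The median log2 fold change of the 42 genes was -0.062. In sorted bulk cells, fewer cells of a type and less RNA per cell cannot be told apart.

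**Figure D1:**
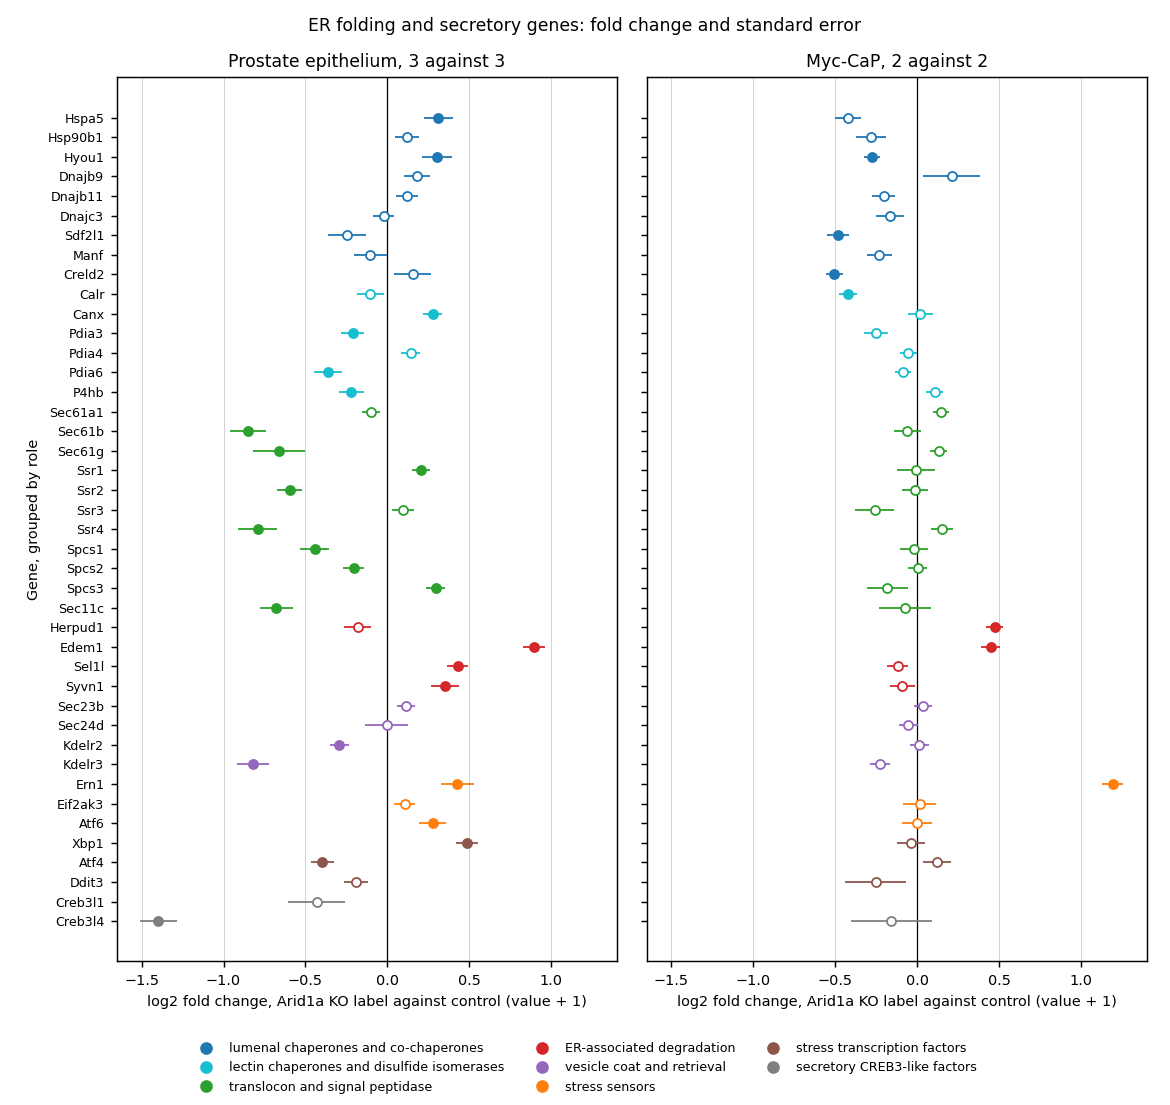
Log2 fold change (x axis, on the log2(value + 1) scale) of each of the 42 genes (y axis, coloured by role) with its standard error, in epithelium (left, 3 against 3 libraries) and Myc-CaP (right, 2 against 2). Filled points passed an adjusted p-value of 0.05; Creb3l4 lay farthest to the left in epithelium at -1.40 and Ern1 farthest to the right in Myc-CaP at 1.19, and Creb3l1 was not tested in Myc-CaP.

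Of the 4 degradation genes, 3 were higher in the KO-labelled epithelium. Edem1, a lectin that passes misfolded glycoproteins to the degradation machinery, measured 18.8, 18.5 and 17.3 RPKM in control A, B and C and 35.1, 36.6 and 32.7 RPKM in KO-labelled A, B and C. The groups were far apart, with a log2 fold change of 0.90 ± 0.067 SE (limma adjusted p-value 5.72e-05), the largest rise among the 42 genes. Sel1l, the scaffold of the ubiquitin ligase complex in the ER membrane, measured 17.99, 15.9 and 17.4 RPKM in the control and 23.6, 23.3 and 23.1 RPKM in the KO-labelled libraries. Its KO-labelled libraries lay close together and above every control library, at a log2 fold change of 0.43 ± 0.065 SE (adjusted p-value 0.00112). Syvn1, which encodes HRD1, the ligase itself, measured 22.7, 20.9 and 23.5 RPKM in the control and 32.2, 27.3 and 27.2 RPKM in the KO-labelled libraries. KO-labelled library A was the highest and no library overlapped, with a log2 fold change of 0.35 ± 0.085 SE (adjusted p-value 0.00927). All 3 calls held under every alternative tried. Herpud1, a partner of the same complex, was not called, at 67.7, 66.8 and 72.8 RPKM in the control and 65.7, 55.2 and 61.9 RPKM in the KO-labelled libraries (log2 fold change -0.18, adjusted p-value 0.0841).

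Among the sensors, Ern1 measured 9.35, 7.02 and 7.99 RPKM in the control and 10.7, 11.7 and 11.2 RPKM in the KO-labelled epithelium. Every KO-labelled library was above every control library, at a log2 fold change of 0.43 ± 0.10 SE (adjusted p-value 0.00822). Atf6 was also higher, from 9.54, 7.77 and 9.14 RPKM to 10.6, 10.7 and 11.3 RPKM (log2 fold change 0.28 ± 0.084 SE, adjusted p-value 0.0250), but that call was lost with the gene length trend removed and without any 1 of the KO-labelled libraries. Eif2ak3 was not called, and its groups overlapped, at 15.8, 15.5 and 14.9 RPKM in the control and 16.9, 17.3 and 15.8 RPKM in the KO-labelled libraries.

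The stress transcription factors moved apart. Xbp1, which IRE1 activates by splicing its RNA, measured 70.7, 68.4 and 73.2 RPKM in the control and 104, 102 and 93.2 RPKM in the KO-labelled epithelium. No library overlapped, and the log2 fold change was 0.49 ± 0.067 SE with an adjusted p-value of 7.28e-04. The tables give 1 value per gene, so the spliced form could not be told from the unspliced. Atf4, whose protein is controlled mainly by translation downstream of PERK, went the other way, from 186, 182 and 195 RPKM to 144, 150.2 and 134 RPKM (log2 fold change -0.40 ± 0.071 SE, adjusted p-value 0.00247). All of its KO-labelled libraries were below the control, and the Xbp1 and Atf4 calls held under every alternative. Ddit3 (CHOP), a target of ATF4 linked to cell death, was not called, at 13.5, 15.6 and 13.3 RPKM in the control and 12.03, 12.2 and 12.3 RPKM in the KO-labelled libraries (adjusted p-value 0.0583).

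Creb3l4, a membrane-bound CREB3-like factor expressed in prostate and cleaved like ATF6, had the lowest fold change of the 42 genes. It measured 7.53, 6.28 and 6.52 RPKM in the control and 1.95, 1.59 and 2.33 RPKM in the KO-labelled libraries. The lowest control library was above the highest KO-labelled library by a wide margin, at a log2 fold change of -1.40 ± 0.11 SE and an adjusted p-value of 7.67e-05. Because values this low are damped by the added 1, the ratio of the group means is also given, at 0.289. Creb3l1, a relative that drives collagen secretion in other tissues, was not called, at 15.6, 11.3 and 16.6 RPKM in the control and 13.2, 9.503 and 8.85 RPKM in the KO-labelled libraries, and its groups overlapped (adjusted p-value 0.0670).

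Of the 9 lumenal chaperones and co-chaperones, 2 were higher and none lower. Hspa5, the Hsp70 chaperone of the ER, measured 385, 402 and 410.2 RPKM in the control and 548, 478 and 463 RPKM in the KO-labelled epithelium. All KO-labelled libraries were above the control, library A the most, with a log2 fold change of 0.31 ± 0.090 SE and an adjusted p-value of 0.0201. The call was lost without KO-labelled library A (adjusted p-value 0.0719), without control library A (0.0685) and with no filter on low values (0.0594). Hyou1, an Hsp70 relative that acts as nucleotide exchange factor for BiP, measured 39.8, 39.5 and 43.7 RPKM in the control and 57.1, 50.1 and 45.7 RPKM in the KO-labelled libraries (log2 fold change 0.30 ± 0.091 SE, adjusted p-value 0.0233). KO-labelled library A was again the highest, and this call was lost in 6 alternatives, among them those without control library A (0.0692), control library B (0.0563), KO-labelled library A (0.0679) or KO-labelled library B (0.0555). Hsp90b1 (GRP94), the Hsp90 of the ER, measured 195, 211 and 212 RPKM in the control and 234, 224 and 214 RPKM in the KO-labelled libraries and was not called. The co-chaperones Dnajb9, Dnajb11 and Dnajc3 and the small ER proteins Sdf2l1, Manf and Creld2 were not called either, with log2 fold changes between -0.25 for Sdf2l1 and 0.18 for Dnajb9.

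Lectin chaperones and disulfide isomerases were split. Canx (calnexin), the membrane lectin that holds newly made glycoproteins, measured 76.05, 75.2 and 80.2 RPKM in the control and 94.95, 93.2 and 92.7 RPKM in the KO-labelled libraries, which did not overlap (log2 fold change 0.28 ± 0.058 SE, adjusted p-value 0.00494). Its soluble partner Calr (calreticulin), at 446, 474 and 474 RPKM in the control and 465, 408 and 425 RPKM in the KO-labelled libraries, overlapped and was not called. Pdia6, a disulfide isomerase that works with BiP, was lower, from 154, 183 and 166 RPKM to 139, 124 and 127 RPKM, again without overlap (log2 fold change -0.36 ± 0.086 SE, adjusted p-value 0.00865). That call was lost when libraries were rescaled to the same sum. P4hb, the main disulfide isomerase, and Pdia3, the isomerase that works with calnexin, were lower by log2 fold changes of -0.22 and -0.21 (adjusted p-values 0.0407 and 0.0343), but those calls were lost in 11 and 10 alternatives. Pdia4 was not called, at 0.14. The median of the 6 genes was -0.16, and its sign turned with libraries rescaled to the same sum (0.019) and with quantile normalization (0.065).

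The translocon and signal peptidase genes held the most calls, 2 higher and 7 lower of 11, with a median log2 fold change of -0.44. That median stayed below 0 in every alternative, including libraries rescaled to the same sum (-0.27) and the gene length trend removed (-0.19). Sec61b, the beta subunit of the channel, measured 121, 164 and 132 RPKM in the control and 73.8, 79.8 and 74.6 RPKM in the KO-labelled libraries. Control library B was the highest of the 6, the KO-labelled libraries lay close together, and the log2 fold change was -0.85 ± 0.11 SE (adjusted p-value 5.88e-04). Sec61g, the gamma subunit, measured 37.5, 61.04 and 42.8 RPKM in the control and 29.6, 28.8 and 28.04 RPKM in the KO-labelled libraries, with control library B again the highest (log2 fold change -0.66 ± 0.16 SE, adjusted p-value 0.00932). Sec61a1, the pore itself, was not called, at 109, 106 and 109 RPKM in the control and 102, 100.3 and 100.2 RPKM in the KO-labelled libraries (adjusted p-value 0.154).

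The translocon-associated protein (TRAP) complex assists the channel with some signal peptides. Its subunit Ssr4 was lower, from 99.1, 108 and 103 RPKM to 66.2, 48.6 and 64.8 RPKM, with no overlap (log2 fold change -0.79 ± 0.12 SE, adjusted p-value 0.00112). Ssr2 was lower as well, from 87.5, 104 and 94.2 RPKM to 63.7, 60.3 and 63.8 RPKM (log2 fold change -0.60 ± 0.077 SE, adjusted p-value 5.67e-04). The other subunits did not share this: Ssr1 was higher, from 13.7, 13.9 and 13.7 RPKM to 15.8, 16.3 and 15.96 RPKM (log2 fold change 0.20 ± 0.055 SE, adjusted p-value 0.0152), and Ssr3 was not called, at 0.094. The Ssr1 call was lost with the gene length trend removed, without control library C and without KO-labelled library B.

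In signal peptidase, Sec11c, a catalytic subunit, measured 79.5, 95.9 and 78.5 RPKM in the control and 47.99, 52.5 and 56.9 RPKM in the KO-labelled libraries. The KO-labelled values were all below the control, with a log2 fold change of -0.68 ± 0.10 SE (adjusted p-value 9.98e-04). Spcs1, an accessory subunit, was lower, from 56.02, 66.7 and 61.8 RPKM to 47.5, 40.9 and 46.4 RPKM (log2 fold change -0.44 ± 0.088 SE, adjusted p-value 0.00396), a call that was lost with the gene length trend removed. Spcs2 was lower by less, at -0.21 ± 0.066 SE (adjusted p-value 0.0298), and lost its call in 7 alternatives. Spcs3, a subunit the enzyme needs for activity, was higher in every KO-labelled library, from 15.6, 14.97 and 16.2 RPKM to 18.96, 19.9 and 19.1 RPKM (log2 fold change 0.29 ± 0.060 SE, adjusted p-value 0.00452).

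Retrieval receptors return escaped ER proteins that carry a KDEL signal from the Golgi. Kdelr3 measured 11.6, 11.3 and 12.1 RPKM in the control and 7.25, 5.63 and 5.72 RPKM in the KO-labelled epithelium, with no overlap (log2 fold change -0.82 ± 0.10 SE, adjusted p-value 3.60e-04). Kdelr2 was lower, from 43.3, 47.3 and 44.5 RPKM to 36.3, 36.99 and 36.4 RPKM (log2 fold change -0.29 ± 0.058 SE, adjusted p-value 0.00399), a call that was lost when libraries were rescaled to the same sum and with the gene length trend removed. The COPII coat genes Sec23b and Sec24d, which build the vesicles that leave the ER, were not called, at 0.11 and -0.0044.

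**Figure D2:**
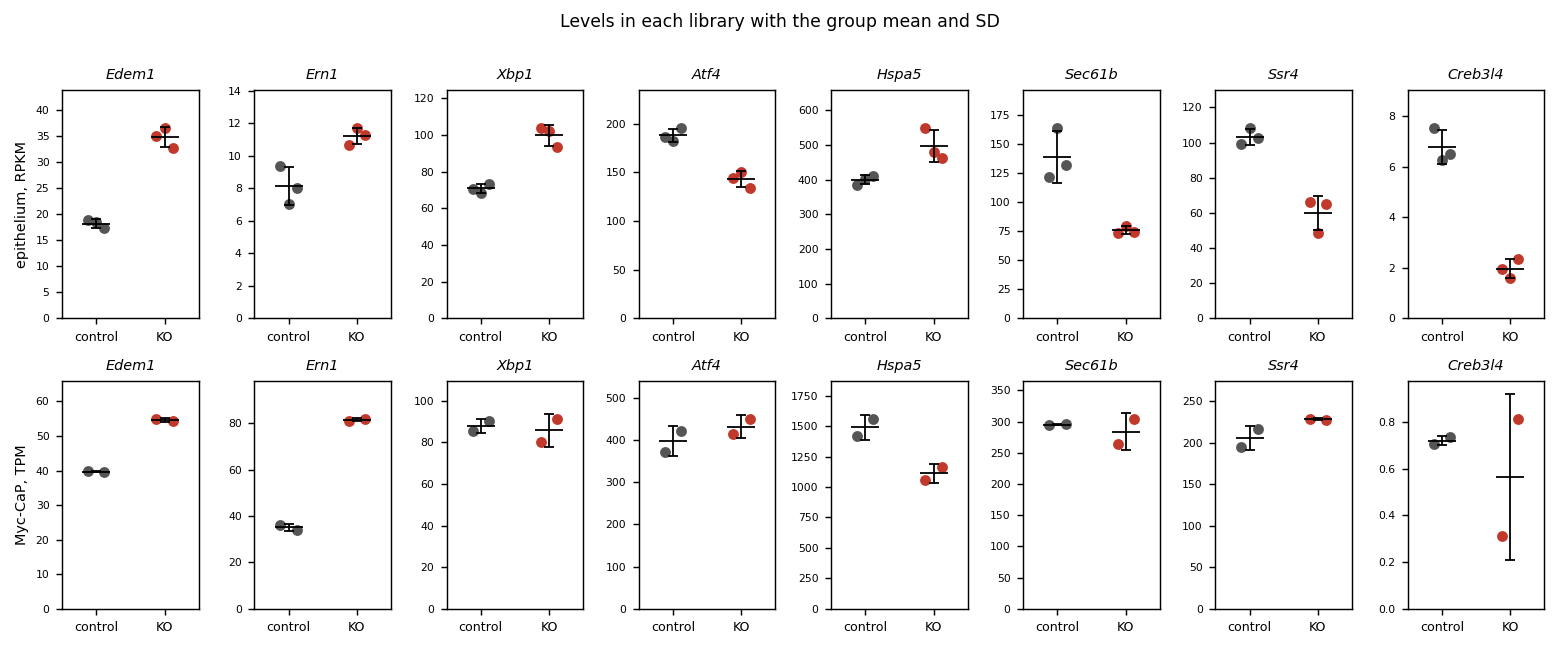
Level of 8 genes in each library (points, y axis from 0) with the group mean and SD (bars), in epithelium (top row, RPKM, 3 control and 3 KO-labelled libraries) and Myc-CaP (bottom row, TPM, 2 and 2). Edem1 and Ern1 lay higher in the KO libraries of both rows, Sec61b, Ssr4, Atf4 and Creb3l4 lay lower in the KO-labelled epithelium alone without overlap, and Hspa5 lay above the control in the top row and below it in the bottom row.

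In the epithelium, the difference also moved with gene length. Over all genes, the median log2 fold change was -0.10 for exonic lengths under 1000 bases, -0.27 for 1000 to 2000, -0.18 for 2000 to 3000, -0.074 for 3000 to 5000 and 0.12 over 5000. Of the 9 genes of the set between 1000 and 2000 bases, none was higher and 6 were lower, whereas of the 12 over 5000 bases, 6 were higher and 1 was lower. The split over all genes ran the same way. Between 1000 and 2000 bases, 16.2% of all genes were called higher and 47.8% lower. Over 5000 bases, 39% were called higher and 18.6% lower. Across the 42 genes, Spearman's rho of length and log2 fold change was 0.61 as a description, and 0.25 across all genes, which are not independent replicates and share the libraries. With a smooth trend on length removed, 12 of the 42 genes were higher and 10 lower, and 5 passed the study's thresholds. The log2 fold change was then 0.83 for Edem1, 0.60 for Xbp1, -0.57 for Sec61b, -0.67 for Ssr4 and -1.16 for Creb3l4, all still called. In Myc-CaP the medians of these length classes lay between -0.019 and 0.014, and rho was 0.19 across the genes of the set and -0.013 across all genes.

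**Figure D3:**
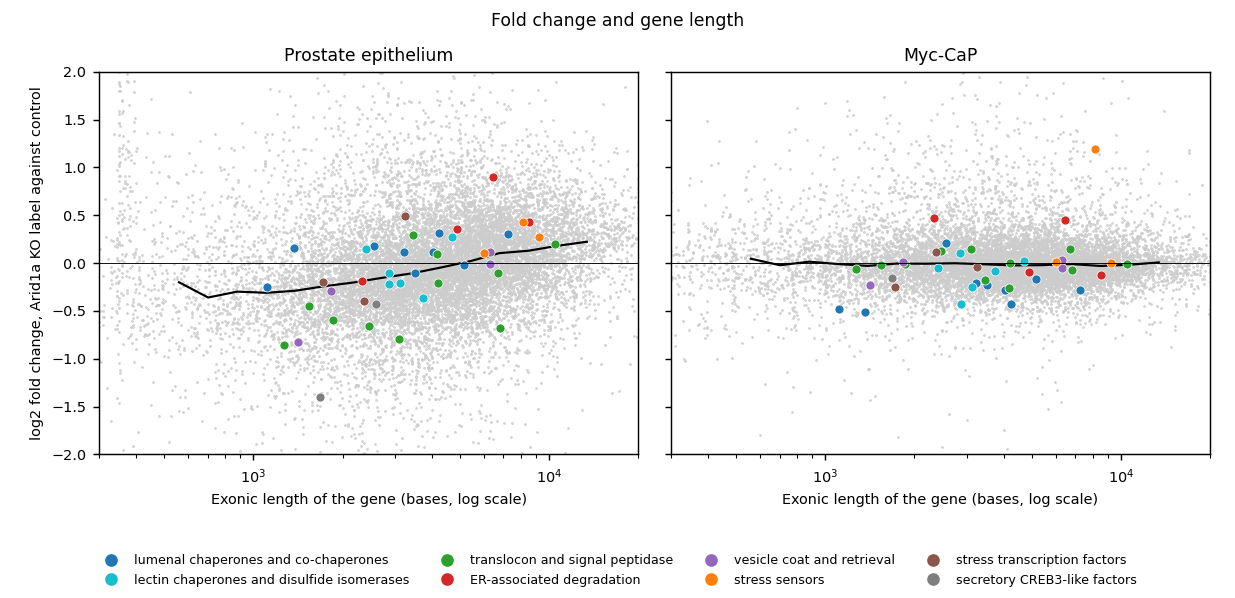
Log2 fold change (y axis, cut at -2 and 2) against exonic length in bases (x axis, log scale) for all tested genes (grey), with the running median (black line) and the genes of the set coloured by role, in epithelium (left) and Myc-CaP (right). In epithelium the median was -0.10 under 1000 bases, lower at -0.27 from 1000 to 2000 bases, and then rose to 0.12 over 5000 bases; in Myc-CaP the line stays near 0.

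Markers of secretory products and of other cells differed between the epithelium groups as well. All 8 seminal vesicle genes and all 12 prostate secretory genes listed were lower in the KO-labelled libraries. Over libraries, the seminal vesicle sum lay between 19464 and 21979 RPKM in the control and between 647 and 1632 RPKM in the KO-labelled libraries, and the prostate secretory sum between 5187 and 6021 RPKM and between 1669 and 2533 RPKM. Plasma and B cells make much ER and express many of the same genes. Of their 12 markers, 11 were tested, 8 were higher and 1 was lower, and the sum lay between 797 and 814 RPKM in the control and between 1589 and 2563 RPKM in the KO-labelled libraries. Igkc, an antibody light chain, measured 497, 482 and 511 RPKM in the control and 948, 1364 and 1574 RPKM in the KO-labelled libraries, and Mzb1, an ER protein of plasma cells, 1.78, 2.46 and 2.11 RPKM in the control and 2.55, 3.39 and 4.14 RPKM in the KO-labelled libraries. The 1 marker that was lower was Derl3, a degradation gene of secretory cells that is also counted among the degradation genes further on, at 2.23, 2.35 and 2.47 RPKM in the control and 1.72, 1.47 and 1.96 RPKM in the KO-labelled libraries. Of the 8 macrophage markers all were higher, with sums of 2305 to 2692 RPKM in the control against 4130 to 4838 RPKM, and Ptprc, which encodes the CD45 sorted against, measured 30.3, 26.01 and 29.5 RPKM in the control and 56.2, 58.1 and 57.6 RPKM in the KO-labelled libraries. Of the 6 leukocyte markers, 5 were higher and 1 lower (sums of 792 to 819 against 942 to 1012 RPKM), and of 7 neutrophil markers tested, 3 were higher and 1 lower (320.1 to 450.2 against 365 to 599.8 RPKM). Of the 6 T cell markers, 3 were higher (24.5 to 28.9 against 32.4 to 37.05 RPKM), and of the 5 endothelial markers, 1 was higher (31.6 to 43.3 against 41.5 to 50.2 RPKM). Fibroblast markers were lower for 3 of 6 (1683 to 2456 against 1401 to 1971 RPKM), and smooth muscle markers were higher for 1 and lower for 4 of 5 (114 to 133 against 96.0 to 118 RPKM). Luminal epithelium markers were lower for 4 of 6 (3739 to 5086 against 3021 to 3429 RPKM) and basal markers higher for 2 of 4 (1331 to 1884 against 2309 to 2584 RPKM). No listed marker was at 0 in all 6 libraries, and the part of these cells in the differences of the ER genes was not tested.

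In Myc-CaP cells fewer genes differed, and the genes that fell were chaperones and their partners. Of the 41 genes tested, 3 were higher (Ern1, Herpud1 and Edem1) and 4 were lower (Creld2, Sdf2l1, Calr and Hyou1) after Arid1a KO. Over all 13974 genes tested, 6.43% were called, 4.54% higher and 1.89% lower. Both KO libraries lay above both empty vector libraries for 8 genes and below for 16, against a share of 51.5% of all tested genes with no overlap. Ern1 alone passed the study's thresholds, against 6.28% of all genes. An unadjusted limma p-value under 0.05 was reached by 15 of the 41, but the share of all genes at that level is not given here. The 15 of 41 is therefore not read as more than other genes would show. With 2 libraries in each group, none of the 7 calls held in every alternative, and leaving out either empty vector library left 1 call (Ern1) and either KO library 0. Creb3l1 lay under the minimum mean of 0.5 TPM and was not tested.

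Ern1 rose more than any other gene of the set, from 36.2 and 33.97 TPM in empty vector libraries 1 and 2 to 80.9 and 81.9 TPM in KO libraries 1 and 2. Both KO libraries held more than 2 times the level of either empty vector library, at a log2 fold change of 1.19 ± 0.063 SE and a limma adjusted p-value of 0.00258. Its fold change ran from 1.15 to 1.24 over the alternatives, and its adjusted p-value from 4.12e-04 to 0.0570. The other sensors overlapped between the groups, Eif2ak3 at 7.703 and 8.52 TPM with the empty vector and 8.13 and 8.27 TPM after KO and Atf6 at 16.1 and 18.1 TPM with the empty vector and 17.4 and 16.7 TPM after KO. Xbp1, the RNA that the Ern1 product cuts, measured 85.4 and 90.3 TPM with the empty vector and 80.1 and 91.4 TPM after KO, and its groups overlapped. Atf4 measured 372 and 422 TPM with the empty vector and 413 and 450 TPM after KO, Ddit3 measured 7.87 and 7.92 TPM with the empty vector and 7.87 and 5.27 TPM after KO, and neither was called (adjusted p-values 0.480 and 0.502). Creb3l4 was near the minimum mean of 0.5 TPM set for testing, at 0.706 and 0.736 TPM with the empty vector and 0.312 and 0.814 TPM after KO.

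Of the degradation genes, Herpud1 rose from 131 and 135 TPM to 187 and 182 TPM, with no overlap (log2 fold change 0.47 ± 0.052 SE, adjusted p-value 0.0140). Edem1 rose from 39.8 and 39.6 TPM to 55.0 and 54.2 TPM, again with libraries of a group close together (log2 fold change 0.45 ± 0.058 SE, adjusted p-value 0.0201). Sel1l and Syvn1 were not called, at -0.12 and -0.090. Over the alternatives, the log2 fold change ran from 0.43 to 0.49 for Herpud1 and from 0.43 to 0.46 for Edem1, while the adjusted p-values ran from 0.00194 to 0.140 and from 0.00407 to 0.160.

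Of the 9 lumenal chaperones and co-chaperones, 3 fell and none rose. Creld2, a small ER protein induced by stress, fell from 245 and 242 TPM to 175 and 168 TPM (log2 fold change -0.51 ± 0.052 SE, adjusted p-value 0.0117). Sdf2l1, a component of the BiP chaperone cycle, fell from 79.5 and 76.2 TPM to 57.5 and 53.3 TPM (log2 fold change -0.48 ± 0.067 SE, adjusted p-value 0.0243). Hyou1 fell from 308 and 296 TPM to 249 and 249 TPM (log2 fold change -0.28 ± 0.051 SE, adjusted p-value 0.0488), and in all 3 genes both KO libraries lay below both empty vector libraries. Hspa5 measured 1418 and 1562 TPM with the empty vector and 1057 and 1166 TPM after KO, without overlap, but missed the threshold (log2 fold change -0.42 ± 0.081 SE, adjusted p-value 0.0533). It passed with a minimum mean of 5 (0.0371), with median-ratio scaling (0.0465) and with the length trend removed (0.0272), and its adjusted p-value ran from 5.41e-04 to 0.283 over all alternatives. Hsp90b1, Manf, Dnajb11 and Dnajc3 had log2 fold changes of -0.28, -0.23, -0.21 and -0.17, with both KO libraries below, and none was called. Dnajb9, at 11.0 and 15.3 TPM with the empty vector and 16.3 and 14.1 TPM after KO, overlapped between the groups.

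Calr fell from 1344 and 1306 TPM to 1000.1 and 976 TPM (log2 fold change -0.42 ± 0.053 SE, adjusted p-value 0.0194), with no overlap. Its partner Canx, at 632 and 689 TPM with the empty vector and 636 and 704 TPM after KO, overlapped. Pdia3 measured 633 and 683 TPM with the empty vector and 529 and 576 TPM after KO and was not called (log2 fold change -0.25 ± 0.071 SE, adjusted p-value 0.127). Pdia4, Pdia6 and P4hb differed by log2 fold changes between -0.087 and 0.11. Of the 11 translocon and signal peptidase genes none was called, with log2 fold changes between -0.26 for Ssr3 and 0.15 for Ssr4. At an unadjusted p-value under 0.05, 2 of them passed, Sec61a1 at 0.15 and Sec61g at 0.13, again without the share of all genes. Sec61b, the lowest of these genes in the KO-labelled epithelium by fold change, measured 295 and 296 TPM with the empty vector and 264 and 305 TPM after KO here and overlapped. Among the vesicle genes, Kdelr3 measured 40.3 and 40.1 TPM with the empty vector and 33.97 and 34.5 TPM after KO (adjusted p-value 0.113), and Sec23b, Sec24d and Kdelr2 had log2 fold changes between -0.054 and 0.036. In this line, seminal vesicle, neutrophil, T cell and endothelial markers did not reach the minimum level in any gene, and Igkc and Ighm were listed at 0 in all 4 libraries. All 3 luminal epithelium markers tested were higher after KO (sums of 414 to 439 against 669 to 695 TPM). So were 1 of 2 basal, 1 of 3 prostate secretory and 1 of 2 plasma and B cell markers tested. No tested leukocyte, macrophage, fibroblast or smooth muscle marker was called, and no marker was called lower. Their relation to the ER genes was not tested.

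The 2 tables share no library and were normalized separately, so their fold changes are set side by side without a test of the difference. Edem1 and Ern1 were called higher in both. Edem1 rose by a ratio of group means of 1.91 in epithelium and 1.38 in Myc-CaP, and Ern1 by 1.38 and 2.32. Hyou1 was called higher in epithelium and lower in Myc-CaP, but the first call was lost in 6 of 15 alternatives and the second in 9 of 13, among them no filter, quantile and median-ratio scaling, removal of the length trend and leaving out any 1 library. Of the other calls, 22 were made in epithelium alone and 4 in Myc-CaP alone, and 12 genes tested in both were called in neither. Of the 8 genes with an ERSE shown above, 3 were higher (Hspa5, Canx and Syvn1) and 1 was lower (Pdia6) in the KO-labelled epithelium, and none was higher and 2 were lower (Calr and Creld2) in Myc-CaP. Of the 21 genes whose windows held none of the 3 elements, 5 were higher and 9 lower in the KO-labelled epithelium, and 2 higher and 1 lower in Myc-CaP. With 57.1% and 6.43% of all genes called in the tables, 4 of 8 calls in epithelium is near the background, and nothing particular to the ERSE is read from these counts. Herpud1, with the ERSE-II, was called in Myc-CaP alone, and Kdelr3, with the UPRE, in epithelium alone. The windows of Edem1, Ern1 and Xbp1 held none of the 3 elements searched.

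Roles were also set against each other within a library, which a scaling of the whole library hardly moves. The mean log2(value + 1) of the 9 lumenal chaperones minus that of the 11 translocon genes was 0.12, 0.049 and 0.19 in control A, B and C and 0.68, 0.53 and 0.43 in KO-labelled A, B and C. It was -0.012 and -0.016 with the empty vector and -0.24 and -0.28 after KO in Myc-CaP, so the KO libraries lay above in the first table and below in the second. The mean of the 4 degradation genes minus that of the chaperones was -1.08, -1.26 and -1.21 in the control and -0.97, -0.89 and -0.85 in the KO-labelled epithelium. In Myc-CaP it was -1.52 and -1.55 with the empty vector and -1.07 and -1.12 after KO, above the controls in both tables. The 42 genes together held between 0.772% and 0.808% of the RPKM total of the control and between 0.803% and 0.874% of the KO-labelled libraries, and 1.14% and 1.18% of the TPM total with the empty vector against 1.04% and 1.08% after KO.

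**Figure D4:**
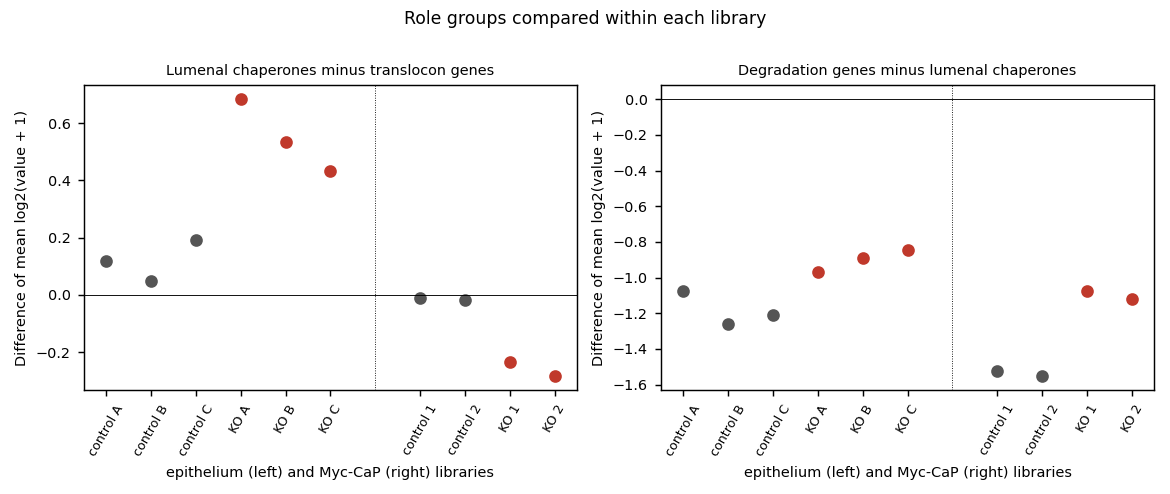
Difference between the mean log2(value + 1) of 2 role groups (y axis) in each of the 10 libraries (x axis; control grey, KO red; epithelium left and Myc-CaP right of the dotted line). In the left panel the KO-labelled epithelium libraries sit between 0.43 and 0.68, above the controls, and the Myc-CaP KO libraries at -0.24 and -0.28, below theirs; in the right panel the KO libraries of both tables sit above their controls.

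Further genes of the same pathway were read from lists, which together had 87 of 141 tested genes (61.7%) called in epithelium, near the 57.1% of all genes. Of 24 other oxidoreductases and prolyl isomerases tested in epithelium, 4 were higher and 16 lower, with a median log2 fold change of -0.35. Ero1l and Ero1lb, the oxidases that recharge disulfide isomerases, were highest, at 0.81 and 0.52 (adjusted p-values 5.78e-05 and 0.00251). Selm, a selenoprotein, and Dnajc10, a reductase that opens wrong disulfides, were lowest, at -1.43 and -1.32 (adjusted p-values 9.14e-05 and 0.00102). Of 17 genes of N-glycosylation and glycan trimming, none was higher and 9 were lower, led by the oligosaccharyltransferase subunits Tusc3 and Dad1, at -0.65 and -0.59. Of 22 other targeting and translocation genes, 1 was higher (Tram2, at 0.71) and 8 were lower, led by Sec62 at -0.60 and Srp14, part of the signal recognition particle, at -0.54.

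Of 17 other degradation genes, 5 were higher, led by Ube2j1, a ubiquitin-conjugating enzyme, and Edem3 (0.36 and 0.34), and 6 were lower, led by Erlec1 and Rnf5 (-0.56 and -0.47). Of 29 other coat, cargo receptor and retrieval genes, 8 were higher and 8 lower. Sec24a of the COPII coat and the cargo receptor Tmed5 were highest (0.67 and 0.65), and the cargo receptor Tmed3 and Cope of the COPI coat lowest (-1.13 and -0.58). Of 20 targets of the integrated stress response, the ATF4 branch, 6 were higher and 9 lower. Slc7a11, a cystine transporter, and the factor Cebpb were highest (1.29 and 0.57), and Phgdh, of serine synthesis, and Chac1, which breaks down glutathione, lowest (-1.29 and -1.02). Of 12 other stress regulators, 4 were higher and 3 lower, the first led by the death-promoting Bcl2l11 and Bak1 (1.06 and 0.42), the latter by Creb3 and Mbtps1, the protease that cleaves ATF6 (-0.47 and -0.35).

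In Myc-CaP the same lists held 10 calls among 141 tested genes (7.09%), near the 6.43% of all genes. Of 19 integrated stress response targets tested, 5 rose and none fell, with a median of 0.26 against -0.014 over all genes. Nupr1, a stress-induced chromatin protein, measured 33.9 and 28.6 TPM with the empty vector and 63.97 and 53.4 TPM after KO (log2 fold change 0.89 ± 0.13 SE, adjusted p-value 0.0259). Chac1 measured 28.7 and 28.3 TPM with the empty vector and 50.2 and 49.4 TPM after KO, also without overlap (log2 fold change 0.78 ± 0.061 SE, adjusted p-value 0.00601). Ddit4, Mthfd2 and Asns, named after their values were seen, rose by 0.74, 0.29 and 0.28 (adjusted p-values 0.0164, 0.0445 and 0.0408). In the KO-labelled epithelium Chac1, Mthfd2 and Asns were lower, at -1.02, -0.65 and -0.90, and Ddit4 was higher, at 0.26. Of the other lists, oxidoreductases had 1 rise (Fkbp14, 0.86) and 1 fall (Fkbp7, -0.75) of 24, glycosylation 1 rise (Tusc3, 0.43) of 17, and degradation 2 rises (Edem2, 0.47, and Vimp, 0.32) of 17. The 22 targeting and translocation genes, 29 coat and retrieval genes and 13 stress regulators held no call.

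**Figure D5:**
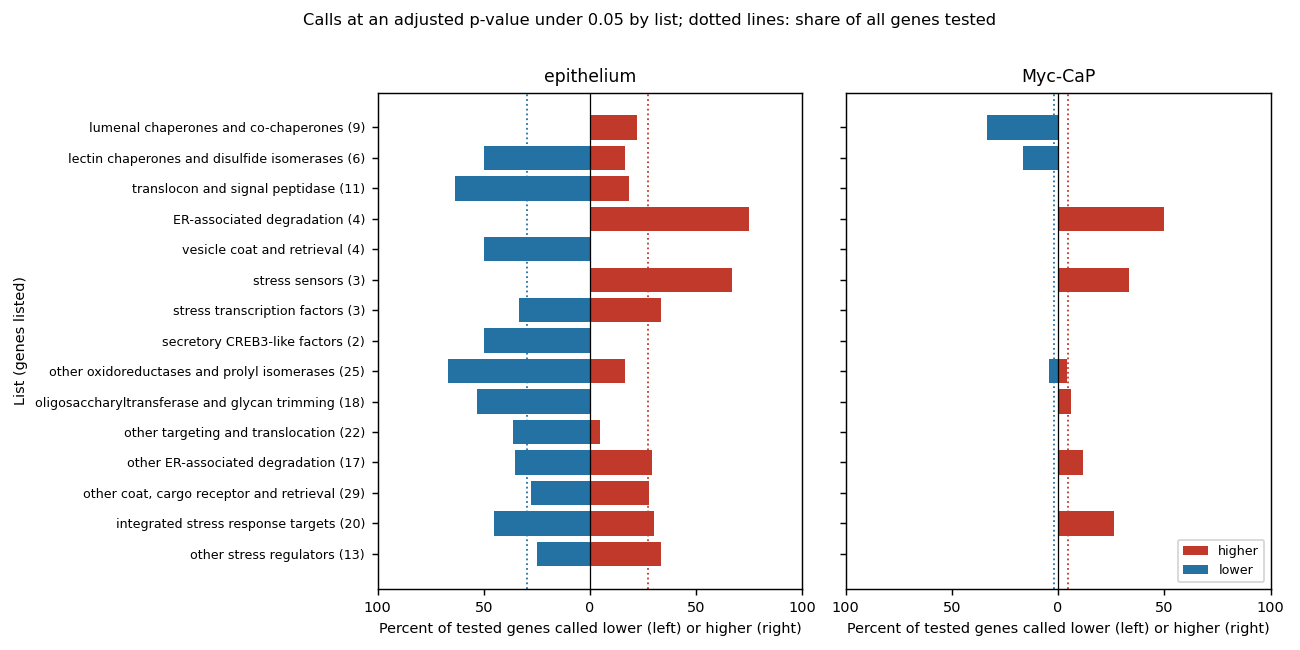
Percent of tested genes called higher (red, right) or lower (blue, left) at an adjusted p-value under 0.05 (x axis) in each role group and wider list (y axis, genes listed in parentheses), in epithelium and Myc-CaP; dotted lines give the share of all genes tested. In epithelium the lines stand at 27.5% and 29.6% and the translocon genes reach 7 of 11 lower; in Myc-CaP they stand at 4.54% and 1.89% and the stress response targets reach 5 of 19 higher.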

How the data were processed

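RNA-seq of 6 sorted epithelium and 4 Myc-CaP libraries was used, grouped by the genotype labels. By the study's methods the authors aligned reads to GRCm38 with TopHat2 and counted them with HTSeq, whereas the submitters' processing notes name HISAT2, HTSeq and DESeq2. The authors deposited RPKM (reads per length and mapped reads) for epithelium and TPM (scaled to the same sum) for Myc-CaP; gene lengths and annotation are not given in the sources used here. These units scale by gene length, keep no depth, and were not fitted by a count model. Values were taken as log2(value + 1), so changes of low genes are understated, and only genes averaging 0.5 or more over their table were tested. The tables were fitted separately with limma 3.58.1 in R 4.3.3 (lmFit, eBayes with a trend), two-sided, without covariates, with Benjamini-Hochberg adjustment over all genes of a table and a threshold of 0.05. The smallest exact permutation p-value is 0.1 for 3 against 3 libraries and 0.333 for 2 against 2. The fits were tested on simulated data, but the settings and outcome are not reported here, so nothing is concluded from that. Exonic lengths came from GENCODE M21, matched for 89.1% and 85.5% of tested genes, and promoter windows from RefSeq on GRCm38.p6, with elements chosen after the values were seen. The 42 genes and all lists were chosen with earlier results of these data known. Named besides the 42 genes are the 2 largest rises and 2 largest falls among called genes of each wider list, markers and Arid1a, while 1 gene set for naming is not reported here; single markers given with values were picked from the marker lists after their values were seen. Alternatives were another pseudocount (0.1), no filter, a minimum mean of 5, libraries rescaled to the same sum, quantile and median-ratio scaling, removal of a length trend (loess, span 0.5), eBayes without a trend, a replicate block and leaving out each library.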

Additional observations from a re-analysis of the deposited data

Results flagged for a closer look

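The difference between epithelium and Myc-CaP was not tested for any of the genes below, because the tables were normalized separately. In 12 of the 42 genes, every KO library of one table lay above its controls and every KO library of the other lay below. The log2 fold changes in epithelium and in Myc-CaP were as follows for the folding genes: Hspa5 (0.31 and -0.42), Hsp90b1 (0.12 and -0.28), Hyou1 (0.30 and -0.28), Dnajb11 (0.12 and -0.21), Pdia4 (0.14 and -0.055) and P4hb (-0.22 and 0.11). For the translocon and degradation genes they were: Sec61a1 (-0.10 and 0.15), Sec61g (-0.66 and 0.13), Ssr3 (0.094 and -0.26), Ssr4 (-0.79 and 0.15), Herpud1 (-0.18 and 0.47) and Sel1l (0.43 and -0.12). Hyou1 alone was called in both tables, and its calls were lost in 6 of 15 alternatives in epithelium and 9 of 13 in Myc-CaP. In all, 51.5% of all genes tested in Myc-CaP and 66.7% of those in epithelium had groups that did not overlap. The share of all genes that did so in opposite directions is not given here. The 12 of 42 are therefore not read as more than other genes would show.

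The same held for 14 other genes named here: Arid1a (0.25 and -0.59), Ero1l (0.81 and -0.32), Ero1lb (0.52 and -0.40), Tusc3 (-0.65 and 0.43), Sec62 (-0.60 and 0.20), Ube2j1 (0.36 and -0.085), Tmed3 (-1.13 and 0.36), Chac1 (-1.02 and 0.78), Creb3 (-0.47 and 0.16), Bcl2l11 (1.06 and -0.16), Edem2 (-0.26 and 0.47), Vimp (-0.43 and 0.32), Mthfd2 (-0.65 and 0.29) and Asns (-0.90 and 0.28). Of these, Tusc3, Chac1, Edem2, Vimp, Mthfd2 and Asns were called in both tables. All but Arid1a were named because they were called in at least 1 table, most as the largest changes of their list. Their number is therefore not set against all genes. The mean of the lumenal chaperones minus that of the translocon genes also moved in opposite directions, by 0.43 in epithelium and -0.25 in Myc-CaP (log2 scale). Groups held 2 or 3 libraries, so single libraries were not tested as outliers.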

How the results depend on the processing

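Of the 25 calls in epithelium, 15 held in every alternative, 10 were lost in at least 1, and 12 genes not called were called in at least 1; in Myc-CaP, 0 of 7 held in every alternative and 13 genes not called were called in at least 1. No called gene changed its direction. Rescaling to the same sum gave 19 higher and 9 lower in epithelium, and removal of the length trend left 5 genes past the study's thresholds. In Myc-CaP, no filter on low values left 4 calls, 1 of them lower, and eBayes without a trend 1 call, which was higher, and 0 lower. Fewer genes were called when 1 Myc-CaP library was left out. The single sample left in an arm is then assumed to vary like the other group. The cause of the differences between alternatives was not tested.

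Replicate letters and numbers mark no stated pairing. Deviations of same-lettered epithelium libraries correlated at 0.041, 0.0094 and -0.057, and those of same-numbered Myc-CaP libraries at 0.19. With 2 libraries in each Myc-CaP group the deviations mirror each other, so differently numbered libraries stood at -0.19. With a replicate block, epithelium had 23 calls (11 higher, 12 lower) and Myc-CaP 20 (7 higher, 13 lower), against 54.2% (8823) and 19.8% (2771) of all genes. In Myc-CaP the block called 8 of the 9 lumenal chaperones lower, Hspa5 among them (limma adjusted p-value 5.41e-04), against 3 in the main fit. The block assumes a pairing that the labels do not state and takes up residual degrees of freedom. Its calls are therefore not read as firmer than those of the main fit. Depth is unknown from RPKM and TPM, so no counting interval is given.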
